A study of Mus musculus with 51 samples.

Results

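The genes described are the enzymes of xenobiotic metabolism in the fetal mouse kidney: cytochromes P450 of families 1 to 3, soluble glutathione S-transferases, membrane-bound (microsomal) glutathione S-transferases, UDP-glucuronosyltransferases and sulfotransferases. Members were taken by gene symbol from the deposited expression table, and 55 of the 70 symbols that matched had a mean of 10 or more over all libraries. They stood among 16099 genes in the table, of which 14426 passed the same filter. The members comprised 14 cytochromes P450 (2 of family 1 and 12 of family 2), 19 soluble glutathione S-transferases, 3 microsomal ones, 11 UDP-glucuronosyltransferases (7 of family 1 and 4 of family 2) and 8 sulfotransferases. The other 15 symbols were below that mean and were not tested, among them Cyp3a13, the only match of P450 family 3. Just inside the limit were Mgst2, Cyp2d37-ps and Sult4a1, with means of 11.2, 11.3 and 12.5, and just outside it Sult1e1 and Cyp2t4, with 9.04 and 7.65.

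Foreign and endogenous lipophilic compounds are cleared in steps. Cytochromes P450 oxidise them with electrons passed on by P450 reductase, and transferases then attach glutathione, glucuronic acid or sulfate, which makes the product soluble and lets efflux pumps export it. In the kidney these enzymes sit mainly in the proximal tubule, where many of them also act on the body's own substrates, such as arachidonic acid, steroids, bilirubin and catecholamines. Their genes are known targets of the aryl hydrocarbon receptor (AHR), of NFE2L2, which responds to oxidative stress, and of the nuclear receptors of tubular and liver cells.

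The kidneys came from wild-type C57BL/6 fetuses, with no treatment named, and were collected every 4 h from embryonic day 18 (CT0) through day 19 (CT24) to day 20 (CT48), by the sample labels; the series' design text ends slightly later on day 20. Each of the 13 time points had 4 libraries, except CT20, which had 3, so 51 libraries of poly-A RNA were analysed in all. The labels call them biological replicates and name no dam or litter, so a p-value covers only how these samples varied, and a time point may hold littermates. The library numbers of the labels split the course into 2 parts, CT0 to CT24 (27 libraries) and CT28 to CT48 (24 libraries). The values had been normalised before deposit: library totals lay from 34226024 to 35711911, and the depth of each library is unknown. Gene means over each part were nearly equal between the parts, so a level in one part cannot be compared with a level in the other, and time was tested within each part. Markers of the proximal tubule were present in every library, with none of 12 at 0 in any of them.

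Levels per kb of exon set the families' main members apart. Gsta2, an alpha-class transferase that reduces lipid hydroperoxides, had 5905 units per kb averaged over all libraries. Sult1d1, which sulfates catecholamines, had 4087 units per kb. Cyp2j5, an arachidonic acid epoxygenase of the proximal tubule, had 3690 units per kb, and Ugt1a2 had 3208. Mgst1, a glutathione transferase and peroxidase of the endoplasmic reticulum and mitochondria, led its small family with 1327 units per kb. Cyp1a1, the AHR-induced oxidase of polycyclic aromatic hydrocarbons, was near the bottom, at 12.9 units per kb.

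Sequence similarity limits what some of these values can say. A search of each member's exons with windows of 50 bases found no window shared with another gene for 18 members and under 5% shared for 35, but over 20% shared for 13. Gsta1 shared 90.5% of its windows, most of them with the gene model Gm3776, and Gsta2 shared 49.8%. The 7 UGT1 genes lie in 1 locus (chr1:88055388-88220002, mm10), where each has its own first exon and splices to common exons, and 52.1% (Ugt1a6a) to 79.8% (Ugt1a6b) of their windows were shared. Among the pi-class pair, Gstp1 shared 33.7% and Gstp2 54.3%. Of the UGT2 genes, Ugt2b5 shared 41.7% and Ugt2b38 37.4%, mostly with each other, and Ugt2b37 shared 18.3%. How reads over shared sequence were counted is not stated in the sources used here. The values of these genes are therefore uncertain as values of single genes.

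Promoters are shown for genes whose contrasts are described below: UGT1 genes of 1 locus, the alpha-class pair Gsta1 and Gsta2, and the 2 genes of P450 family 1. All come from RefSeq on GRCm38.p6, which had an entry for 48 of the 55 members, and each run is the 120 bases before the annotated start, 5′ to 3′. Of the UGT1 genes 4 are shown, and capitals mark the longest stretch that Ugt1a10 and Ugt1a9, a neighbouring pair, have in common.
Ugt1a10 (chr1:88055291-88055410, plus strand): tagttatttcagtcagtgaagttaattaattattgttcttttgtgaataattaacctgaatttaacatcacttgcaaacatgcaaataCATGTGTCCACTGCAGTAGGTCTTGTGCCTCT
Ugt1a9 (chr1:88070659-88070778, plus strand): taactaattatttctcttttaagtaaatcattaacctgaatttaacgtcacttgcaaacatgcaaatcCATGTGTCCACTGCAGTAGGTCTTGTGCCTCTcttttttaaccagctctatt
Ugt1a1 (chr1:88211839-88211958, plus strand): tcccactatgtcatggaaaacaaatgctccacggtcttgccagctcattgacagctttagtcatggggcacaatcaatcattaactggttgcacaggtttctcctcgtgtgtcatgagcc
Ugt1a2 (chr1:88200491-88200610, plus strand): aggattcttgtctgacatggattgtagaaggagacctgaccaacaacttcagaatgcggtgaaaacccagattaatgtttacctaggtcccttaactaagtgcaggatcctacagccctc
That stretch was 32 bases long. None of the motifs given for the next set was found in the 250 bases upstream of the 6 UGT1 genes with an entry.

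In the alpha-class pair and the 2 genes of P450 family 1, capitals mark GCGTG or its complement, the core of the xenobiotic response element bound by AHR, and TATAAA on the coding strand.
Gsta1 (chr9:78230549-78230668, plus strand): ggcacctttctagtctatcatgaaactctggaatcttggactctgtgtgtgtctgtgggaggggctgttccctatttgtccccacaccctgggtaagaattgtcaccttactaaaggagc
Gsta2 (chr9:78347146-78347265, minus strand): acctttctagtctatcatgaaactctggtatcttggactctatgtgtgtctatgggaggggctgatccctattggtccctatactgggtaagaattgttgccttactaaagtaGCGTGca
Cyp1a1 (chr9:57697493-57697612, plus strand): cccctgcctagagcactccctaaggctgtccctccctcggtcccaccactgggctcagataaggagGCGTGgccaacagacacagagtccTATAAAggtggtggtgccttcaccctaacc
Cyp1b1 (chr17:79715062-79715181, minus strand): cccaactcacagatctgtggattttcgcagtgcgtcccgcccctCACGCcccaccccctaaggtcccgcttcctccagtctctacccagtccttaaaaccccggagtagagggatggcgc
GCGTG stood within 250 bases upstream of 12 members and in 28.2% of all 32851 promoters. TATAAA was found for 5 members and 7.59% of promoters. The antioxidant response element TGACNNNGC was found for 4 members (Gsta3, Gstm5, Gstm7 and Mgst1) and 10.2% of promoters, the E-box CACGTG for Cyp2j6 alone and 6.02%, and the D-box TTATGTAA and the DR1 repeat bound by HNF4A and PPAR for none (0.819% and 0.0335%). All motifs except TATAAA were searched on both strands, and a match describes letters, not binding.

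From CT0 to CT24 the members changed little in size, and those that passed the test mostly rose. A line in time was fitted to log2(value + 1) over the 27 libraries with limma, and its slope is given as a log2 change per 24 h, with Benjamini-Hochberg adjustment over all genes. At an adjusted p under 0.05, 13 of 55 members rose and 3 fell, against 12.9% and 10% of all genes (22.9% in either direction). Without CT24, 6 rose, and without CT0, 1 fell. The rises were 8 of 14 P450 genes, 2 of 19 soluble glutathione transferases (Gsta2 and Gsto1), 2 of 11 UDP-glucuronosyltransferases (Ugt1a2 and Ugt1a10) and 1 of 8 sulfotransferases (Sult1c2). None of the 3 microsomal transferases passed. The median slope was 0.13 over the members and -0.0016 over all genes. No member's highest time-point mean reached 2 times its lowest in this part, and the median ratio was 1.27.

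From CT28 to CT48 more members passed and in both directions. This part is shorter than 24 h, so its slopes per 24 h are not the amount of change seen within it. Of the 55, 19 rose and 17 fell, against 28.7% and 30.7% of all genes (59.3% in either direction), so the members' share was near that of the table. UGT1 genes and UGT2 genes went opposite ways, with 6 of 7 UGT1 genes rising and 4 of 4 UGT2 genes falling. The median ratio of highest to lowest time-point mean was 1.55, with 14 members at 2 or more, and the ratio was larger in this part for 43 members. Few calls held without the first 2 time points: with CT28 and CT32 left out, 0 members rose and 1 fell (Cyp2j11), against 3.87% and 3.57% of all genes, and at an unadjusted p under 0.05 limma gave 3 and 2. Of the 36 members called with all time points, 24 then had a slope under 0.5 times its size or of the other sign, while 12 kept more, Gsto2 (-1.85), Cyp2s1 (0.38) and Cyp2j11 (-1.14) being steeper than before, and the SEs of the 36 were larger by a median factor of 1.79. With only CT28 left out, 14 rose and 11 fell.

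**Figure D1:**
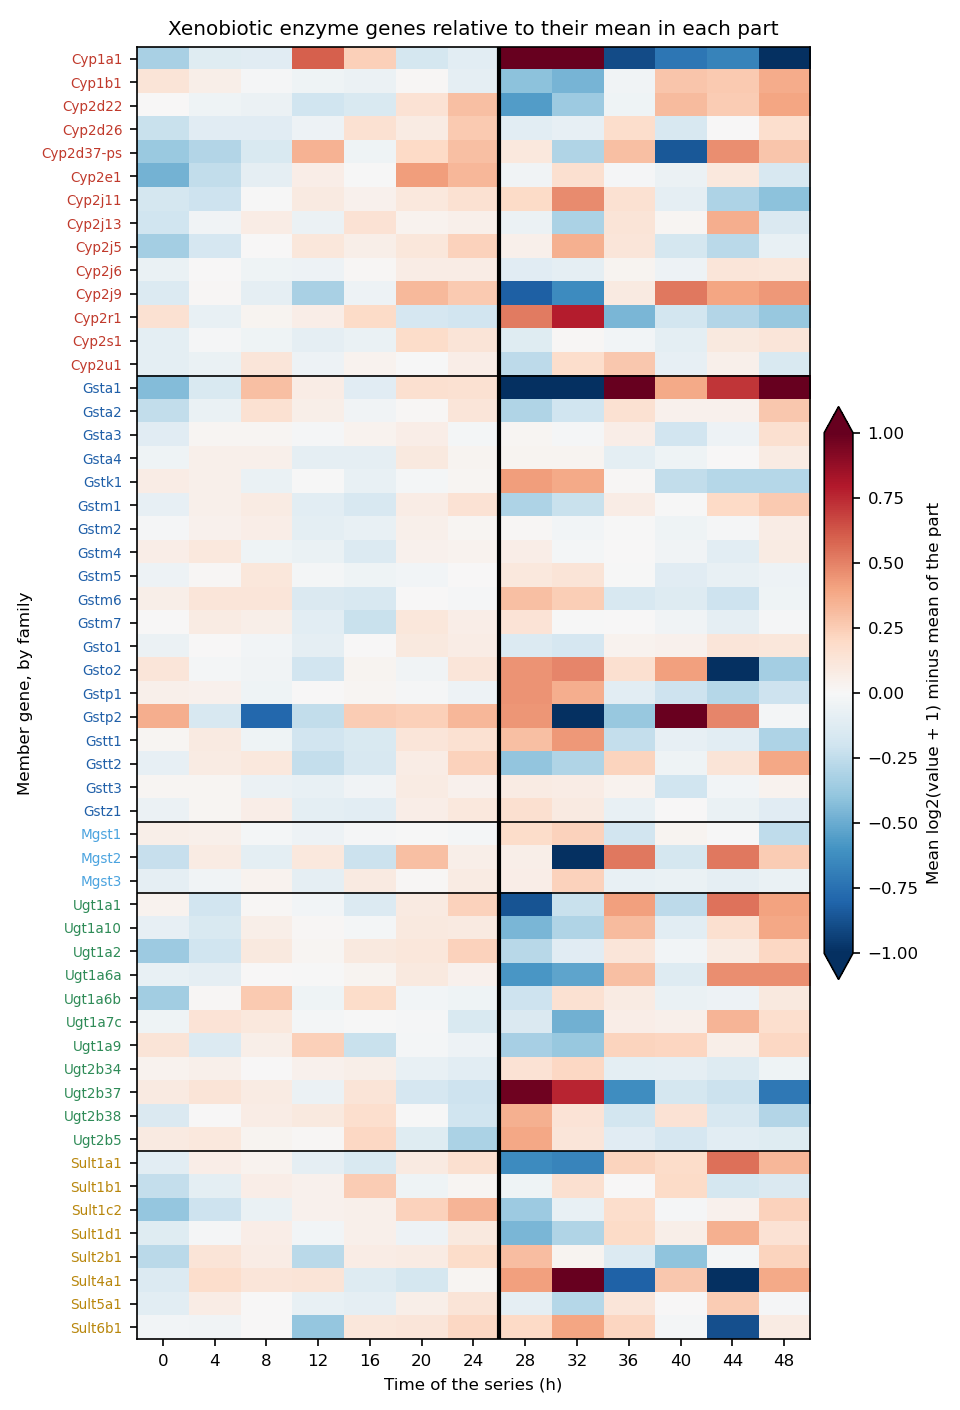
Mean log2(value + 1) of each member at each time point, minus its mean over the time points of the same part; rows are the 55 members by family, columns are hours, and the black vertical line parts CT24 from CT28. Colours are pale from CT0 to CT24, while CT28 and CT32 differ from CT36 onward in both directions, for example in Gsta1, Cyp1a1 and Ugt2b37; colours stop at 1 and -1.

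**Figure D2:**
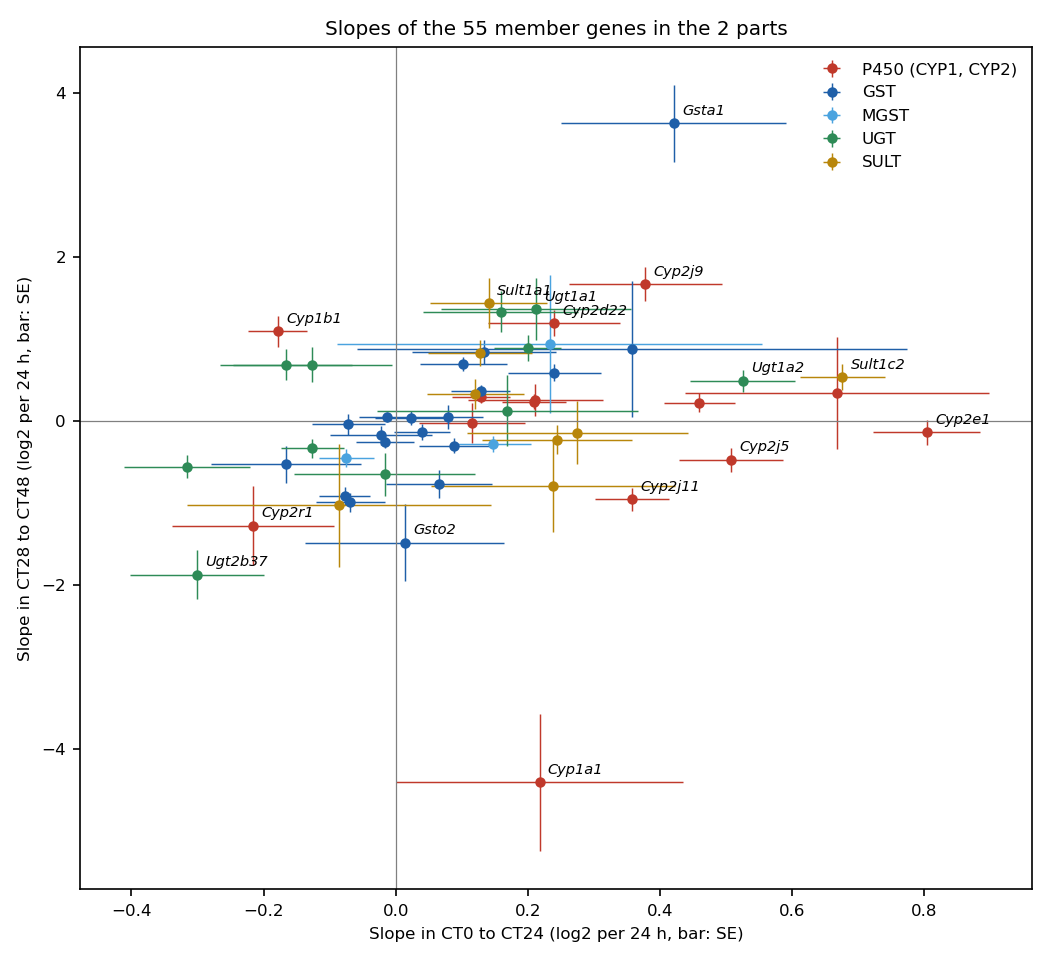
Slope of each member in CT0 to CT24 (horizontal axis) against CT28 to CT48 (vertical axis, on a wider scale), in log2 per 24 h, with SE bars and colours for the families. Cyp2e1 has the steepest rise of the first part (0.80) and Gsta1 of the second (3.63), with Cyp1a1 lowest in the second (-4.41).

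Calls in the 2 parts combined in several ways. In all, 8 members rose in both parts (Cyp2j6, Cyp2j9, Cyp2s1, Gsta2, Gsto1, Sult1c2, Ugt1a2 and Ugt1a10) and 2 fell in both (Ugt2b5 and Ugt2b37). Cyp2j5 and Cyp2j11 rose and then fell, and Cyp1b1 fell and then rose. Some first-part calls were not stable: the call of Gsto1 held in 1 of 4 fits without a replicate number and 4 of 7 without a time point, and that of Gsta2 in 2 of 4 and 5 of 7, with a slope of 0.08 without CT0 (adjusted p = 0.504). A fit over all 51 libraries, with weights for the larger spread of the later part, tested the difference of the slopes directly. The slope was more positive in CT28 to CT48 for 14 members and more negative for 14, against 23.3% and 28% of all genes. Without CT28 and CT32 these counts were 0 and 1, with 1 more positive at an unadjusted p under 0.05 in limma, and without CT28 alone they were 9 and 11.

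Among the cytochromes P450, Cyp2e1, which oxidises ethanol, acetone and paracetamol, rose most in the first part. Its values were 413, 445, 332 and 367 at CT0 and 655, 748, 655 and 653 at CT24. The groups did not overlap, and the slope over CT0 to CT24 was 0.80 ± 0.081 (SE, n = 27, limma adjusted p = 9.49e-09). From CT28 to CT48 its slope was -0.14, which did not pass (adjusted p = 0.45). The difference of the slopes passed, at -0.94 ± 0.193 (limma adjusted p = 4.81e-05).

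Of the 5 genes tested in the CYP2J group, which holds arachidonic acid epoxygenases, Cyp2j5 and Cyp2j11 rose and then fell, Cyp2j6 and Cyp2j9 rose in both parts, and Cyp2j13 passed in neither trend. Cyp2j5 (chr4:96628773-96664154) had 8156, 6548, 6000 and 6716 at CT0 and 9979, 11139, 9831 and 9696 at CT24, with no overlap and a slope of 0.51 ± 0.078 (limma adjusted p = 2.86e-05). Within CT28 to CT48 it was highest at CT32, with 12157, 12209, 10540 and 8701, and stood at 8094, 7073, 7859 and 9353 at CT48. That decline gave a slope of -0.47 ± 0.148 (limma adjusted p = 0.00769). Cyp2j11 rose by 0.36 ± 0.057 and then fell, with a slope of -0.96 ± 0.136 (limma adjusted p = 6.8e-07). It was the one member whose later fall passed without CT28 and CT32, where the slope was -1.14 ± 0.216 (limma adjusted p = 0.00492). Cyp2j9 averaged 134.5 ± 11.2 (SD, n = 4) at CT28, had 177, 169, 121 and 148 at CT32 and 265, 252, 246 and 242 at CT36, and reached 350, 295, 378 and 349 at CT40. All 16 libraries from CT36 on lay above all 8 before it, a split chosen after the values were seen, which held for Cyp2j9 and Gsta1 and for 4.4% of all genes. The slopes of Cyp2j9 were 0.38 ± 0.115 and 1.67 ± 0.204 (limma adjusted p = 0.0162 and 6.46e-08).

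Cyp2d26 and Cyp2d22, drug-oxidising enzymes of the CYP2D group on chromosome 15, were higher at CT24 than at CT0 in every library. Cyp2d26 had 4194, 4742, 4208 and 4062 at CT0 and 5810, 6419, 6212 and 5653 at CT24, a difference of 0.49 ± 0.064 (limma adjusted p = 3.73e-06). Cyp2d22 had 733, 588, 744 and 595 at CT28 and 1563, 1155, 1237 and 1214 at CT48, again without overlap. Its later slope was 1.2 ± 0.163 (limma adjusted p = 4.67e-07). The pseudogene Cyp2d37-ps, listed at 5 to 22 in CT0 to CT24, had a slope of 0.67 ± 0.230 (limma adjusted p = 0.0326), and it passed only without replicate 3 among the 4 fits that left out a replicate number. Cyp2r1, the vitamin D hydroxylase of the liver, which is low here, fell in CT28 to CT48 with a slope of -1.28 ± 0.481 (limma adjusted p = 0.023). Its libraries overlapped (52 to 151 at CT32 and 25 to 66 at CT36). It did not pass without CT28 or without CT32 (-1.30 and -0.94, adjusted p = 0.113 and 0.125).

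The 2 genes of P450 family 1, both induced through AHR, moved in opposite directions in CT28 to CT48. Cyp1a1 (chr9:57687928-57703824) ranged from 16 to 48 over the libraries of CT0 to CT24 and passed no test there. Within the later part it had 47, 74, 167 and 77 at CT28 and 127.2 ± 74.6 (SD, n = 4) at CT32, with a lowest library of 66 and a highest of 236, and dropped to 49, 16, 17 and 1 at CT36 and 2, 6, 7 and 19 at CT48. Replicate 3 was the highest library at both CT28 and CT32, and CT36 lay below CT32 in every library. The slope was -4.41 ± 0.837 and the CT36 difference from CT32 was -3.12 ± 0.706 (limma adjusted p = 5.56e-05 and 0.00128). Cyp1b1 (chr17:79701537-79715061), an oxidase of estradiol and polycyclic hydrocarbons typical of mesenchyme, had 1477, 1495, 1265 and 1441 at CT28 and 3167, 3031, 1960 and 1847 at CT48. It fell in the first part (slope -0.18 ± 0.045, but -0.13 with adjusted p = 0.112 without CT0) and rose in the second (1.10 ± 0.190, limma adjusted p = 0.00369 and 2.23e-05). Ahr itself had a slope of 0.34 ± 0.094 in CT28 to CT48 (limma adjusted p = 0.0025), and Tiparp, another AHR target, had 0.12 (adjusted p = 0.398).

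**Figure D3:**
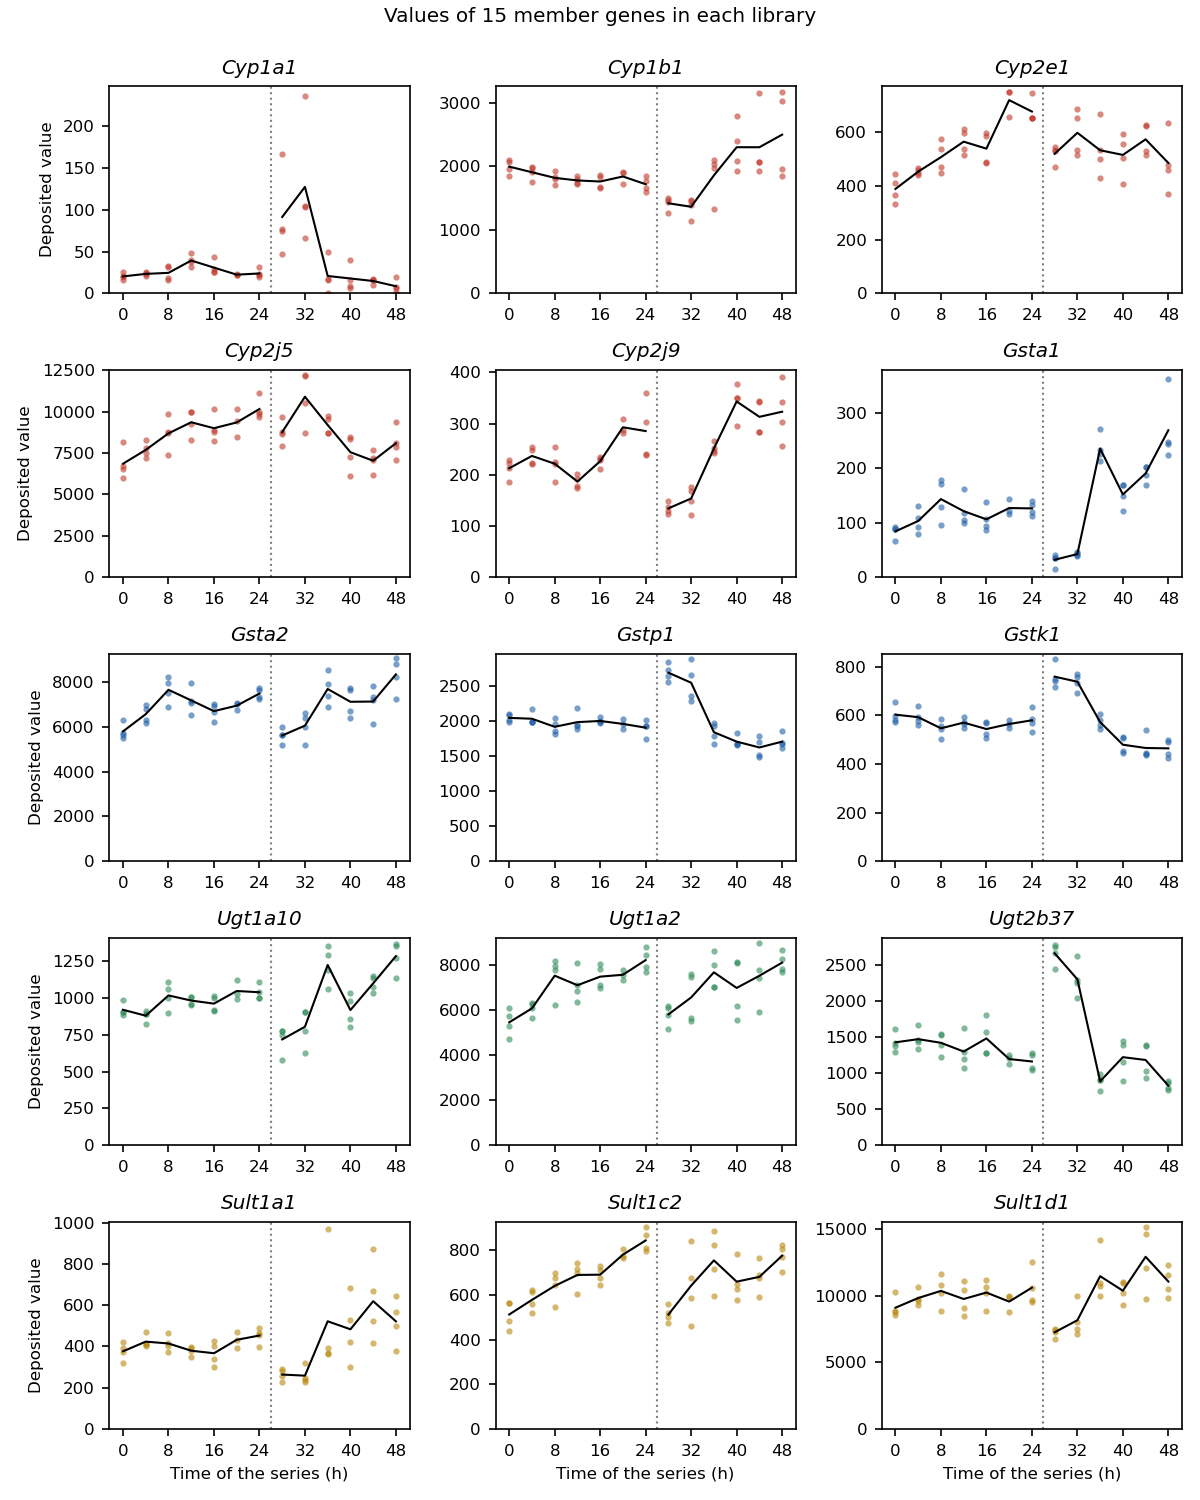
Deposited value of 15 members in each library (points) with the mean of each time point (line), against hours; each panel starts at 0, and the dotted line parts CT24 from CT28, across which levels cannot be compared. Gsta1 and Cyp2j9 are low and Gstk1, Gstp1 and Ugt2b37 high in all 8 libraries of CT28 and CT32 beside the 16 later ones.

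Among the glutathione S-transferases, Gsta1 changed most. It had 36, 16, 40 and 36 at CT28, 39, 44, 46 and 41 at CT32, 226, 232, 272 and 212 at CT36 and 224, 243, 362 and 247 at CT48. The highest library of CT28 and CT32, at 46, was below every library from CT36 on. The CT36 difference from CT32 was 2.44 ± 0.219, and the slope was 3.63 ± 0.466 (limma adjusted p = 1.24e-08 and 2.93e-07). In the first part Gsta1 was 92, 89, 89 and 66 at CT0 and was higher in all 4 libraries of CT24, up to 140, a difference of 0.59 ± 0.184 (limma adjusted p = 0.019). That difference did not pass without replicate 4 of CT0 (0.48) or without replicate 3 of CT24 (0.53), with adjusted p = 0.0736 and 0.0594. Gsta2 moved less, from 5656, 5190, 5980 and 5643 at CT28 to 8248, 7240, 8832 and 9071 at CT48, without overlap and with a slope of 0.59 ± 0.105 (limma adjusted p = 2.18e-05). Of the other alpha-class genes, Gsta3 and Gsta4 passed in neither trend.

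Several genes of other soluble classes fell in CT28 to CT48. Gstk1, the kappa-class enzyme of mitochondria and peroxisomes, had 833, 740, 749 and 716 at CT28 and 426, 443, 489 and 500 at CT48, and its slope was -1.0 ± 0.111 (limma adjusted p = 1.62e-08). Gstp1, the pi-class enzyme, had 2835, 2550, 2636 and 2725 at CT28 and 1612, 1690, 1664 and 1851 at CT48, with a slope of -0.91 ± 0.112 (limma adjusted p = 6.65e-08). For both, all 8 libraries of CT28 and CT32 were above all 16 later ones, which was so for 3 members, the third being Ugt2b37, and for 6.21% of all genes. Gsto2, a dehydroascorbate reductase with only 6 to 71 units in this part, fell with a slope of -1.49 ± 0.468. Its lowest time point was CT44 (11, 14, 6 and 12), without which the slope was -0.90 and did not pass (adjusted p = 0.0795). Gstt1, Gstm6, Gstz1 and Gstm5 of the theta, mu and zeta classes also fell, with downward slopes of 0.77, 0.53, 0.30 and 0.26. With Gsto2, Gstk1 and Gstp1, 7 of the 19 fell.

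Rises in the later part also occurred in the mu, theta and omega classes. Gstm1, a mu-class enzyme, had 2124, 2030, 2197 and 2226 at CT28 and 3075, 2876, 3606 and 3225 at CT48, without overlap and with a slope of 0.69 ± 0.086 (limma adjusted p = 8.82e-08). Gstt2, of the theta class, had 1172, 988, 927 and 918 at CT32 and 1474, 1358, 1415 and 1462 at CT36, again without overlap, and its slope was 0.84 ± 0.146 (limma adjusted p = 1.39e-05). Its class mate Gstt1 went the other way over the same step, from 559, 671, 658 and 523 at CT32 to 431, 404, 430 and 266 at CT36. Gsto1, a thioltransferase of the omega class, rose with a slope of 0.36, so that with Gsta1 and Gsta2, 5 of the 19 soluble transferases rose.

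The microsomal transferases fell where they passed. Mgst1 was 3341, 2851, 3120 and 3253 at CT32 and 2592, 2107, 2333 and 2337 at CT36, without overlap, and the difference was -0.42 ± 0.079 (limma adjusted p = 0.000142). At CT40 the libraries overlapped both time points again, with 2792, 2748, 2295 and 3078. Its slope in CT28 to CT48 was -0.46 ± 0.110 (limma adjusted p = 0.000707), and without CT48 it was -0.35 and did not pass (adjusted p = 0.057). Mgst3 had a slope of -0.28 ± 0.098 (limma adjusted p = 0.0139), and without CT32 it was -0.17 and did not pass (adjusted p = 0.147). Mgst2, with values of 0 to 35 in that part, passed no test of time.

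UGT1 genes, whose products glucuronidate bilirubin, phenols and drugs, rose in both parts where they passed. Ugt1a2, the most abundant, had 6116, 5741, 4738 and 5284 at CT0 and 7951, 8825, 8478 and 7712 at CT24, a slope of 0.53 ± 0.079 (limma adjusted p = 2.05e-05). Ugt1a10 had 581, 775, 746 and 775 at CT28, 1192, 1295, 1354 and 1063 at CT36 and 1276, 1356, 1371 and 1140 at CT48. Its values dipped to 861, 801, 981 and 1033 at CT40, which lay below all those of CT36. The slope was 0.89 ± 0.161 and the CT36 difference from CT32 was 0.62 ± 0.111 (limma adjusted p = 2.71e-05 and 0.000103). Ugt1a1, which conjugates bilirubin, rose from 29, 30, 44 and 62 at CT28 to 110, 119, 70 and 93 at CT48. Its slope was 1.37 ± 0.382 (limma adjusted p = 0.00289). With CT28 left out its slope was 0.83 and did not pass (adjusted p = 0.169). Ugt1a6a, which prefers small planar phenols, rose with a slope of 1.34 ± 0.251, and Ugt1a7c, Ugt1a9 and Ugt1a2 with slopes of 0.69, 0.69 and 0.49. Ugt1a6b, at 10 to 46 units over the 51 libraries, passed in neither part. As these genes share exons, their rises are not 6 independent counts.

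UGT2 genes, which conjugate steroids and other lipophilic compounds, fell. As Ugt2b5, Ugt2b37 and Ugt2b38 share part of their sequence, these falls are not independent counts. Ugt2b37 (chr5:87240493-87254804) had 2667, 2445, 2771 and 2749 at CT28, 2292, 2034, 2621 and 2241 at CT32, 980, 745, 904 and 908 at CT36 and 884, 794, 759 and 857 at CT48. The lowest library of CT28 and CT32 (2034) was above the highest later one (1449). The CT36 difference was -1.38 ± 0.130 and the slope -1.87 ± 0.294 (limma adjusted p = 5.99e-08 and 8.89e-06). Values were higher again at CT40 (1449, 895, 1385 and 1146) than at CT48. Ugt2b38, Ugt2b5 and Ugt2b34 fell with downward slopes of 0.65, 0.56 and 0.34. The call of Ugt2b38 held in 1 of 4 fits without a replicate number (slopes of -0.84 to -0.36). Neither Ugt2b38 nor Ugt2b5 passed without CT28 (-0.50 and -0.28, adjusted p = 0.272 and 0.202). In the first part Ugt2b5 and Ugt2b37 fell by 0.32 and 0.30 (limma adjusted p = 0.0157 and 0.0329). The call of Ugt2b37 held in 2 of 7 fits without a time point and 1 of 4 without a replicate number, and that of Ugt2b5 in 6 of 7 and 2 of 4. Without CT24 neither passed (-0.10 and -0.22, adjusted p = 0.63 and 0.344), and without CT0 Ugt2b37 did not (-0.38, adjusted p = 0.0599).

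Among the sulfotransferases, the 4 tested SULT1 genes held the 3 rises of the later part. Sult1c2 had 563, 563, 486 and 440 at CT0 and 810, 905, 867 and 796 at CT24. Its slope was 0.68 ± 0.064 in that part and 0.54 ± 0.154 in the later one (limma adjusted p = 2.8e-09 and 0.00348), and the later one no longer passed without CT28 (0.28, adjusted p = 0.262). Sult1a1, the phenol sulfotransferase, had 321, 248, 240 and 226 at CT32 and 366, 364, 391 and 967 at CT36. The groups did not overlap, though replicate 4 stood far above the other 3 at CT36, and the difference was 0.88 ± 0.287 (limma adjusted p = 0.0209). Without that library it was 0.54 (limma adjusted p = 0.0725). Its slope was 1.44 ± 0.307 (limma adjusted p = 0.000255). Sult1d1 had 7518, 6769, 7249 and 7458 at CT28 and 12319, 11576, 10498 and 9809 at CT48, with no overlap and a slope of 0.83 ± 0.161 (limma adjusted p = 8.9e-05). Sult4a1, a gene best known from brain with 1 to 38 units in this part, was lower at CT36 (11, 8, 9 and 1) than at CT32 (19, 17, 36 and 25), by -1.83 ± 0.626 (limma adjusted p = 0.0232), which did not pass without replicate 4 of CT36 (-1.24, adjusted p = 0.121). Sult1b1, Sult2b1 and Sult6b1 passed in neither trend.

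Of the 55 members, 16 passed in neither trend. They were Cyp2j13, Cyp2u1, Gsta3, Gsta4, Gstm2, Gstm4, Gstm7, Gstp2, Gstt3, Mgst2, Ugt1a6b, Sult1b1, Sult2b1, Sult4a1, Sult5a1 and Sult6b1. Several were abundant and varied little within each part. Gsta4, which conjugates the lipid aldehyde hydroxynonenal, had a highest time-point mean 1.14 and 1.13 times its lowest in the earlier and later part. These ratios were 1.12 and 1.08 for Gstm2 and 1.12 and 1.22 for Gstt3. Over all 51 libraries, values of Gsta4, Gstm2 and Gstt3 ranged from 2494 to 3567, 1983 to 2615 and 1057 to 1482. Gsta4 and Gstm2 passed the 24 h rhythm test described below. Gstp2, Mgst2, Sult4a1, Sult6b1 and Ugt1a6b had at most 46 in any library, and their SEs were wide (0.84 for Mgst2 in CT28 to CT48).

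Single time points were also compared. At CT24 against CT0, the same clock time a day apart, 18 members were higher and 2 lower at the threshold, against 14.3% and 12.2% of all genes. The libraries did not overlap for 18 members on the higher side and 4 on the lower (14.8% and 13.2% of all genes). The 2 that fell were Cyp1b1 (-0.22 ± 0.052) and Ugt2b5 (-0.41 ± 0.091, limma adjusted p = 0.00247 and 0.00143). Without replicate 2 of each time point, 11 rose. At CT36 against CT32, 15 members were higher and 11 lower (15.7% and 19.1% of all genes), and libraries did not overlap for 12 and 11 (12.7% and 16.9%). Without replicate 3 the rises were 7 and without replicate 4 they were 9.

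**Figure D4:**
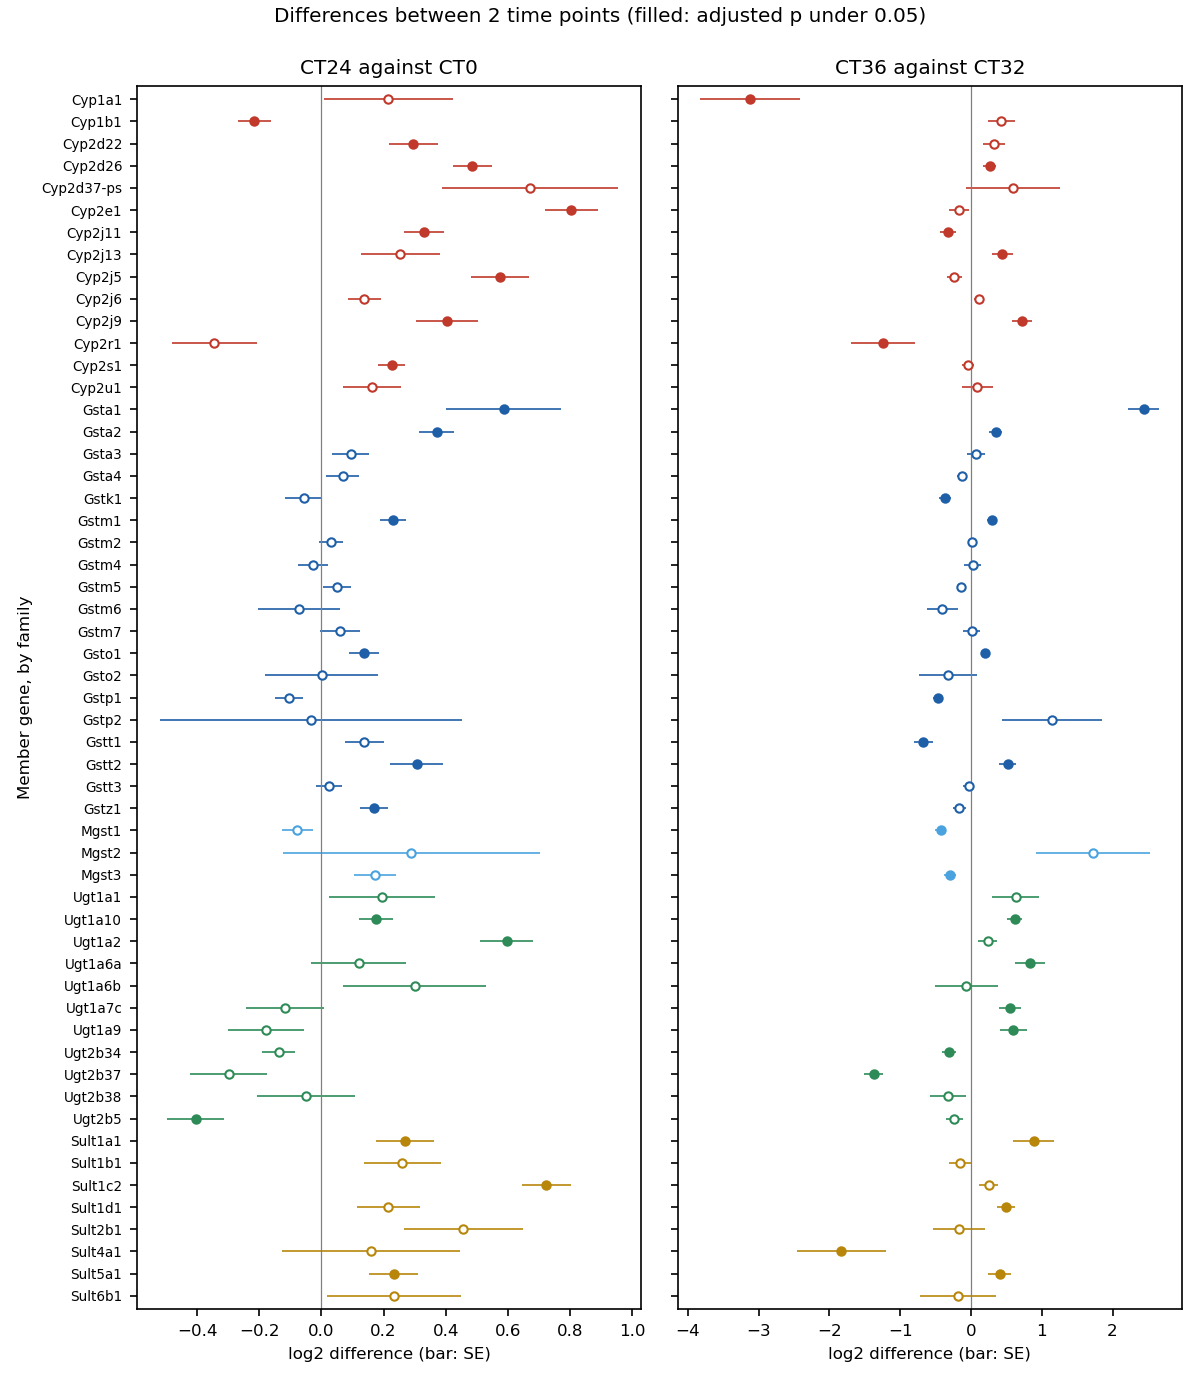
Difference of CT24 from CT0 (left) and of CT36 from CT32 (right) for each member, in log2(value + 1) with SE bars, coloured by family; filled points passed at an adjusted p under 0.05, and the panels have different scales. Most filled points on the left are above 0, led by Cyp2e1 (0.80), while on the right they lie on both sides, from Cyp1a1 (-3.12) to Gsta1 (2.44).

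A rhythm of 24 h was tested over all 51 libraries with a line and a step between the parts. It passed for 8 of 55 members, against 12.3% of all genes. The epoxygenase genes Cyp2j5 (amplitude 0.25 ± 0.049, fitted peak at 8.13 h) and Cyp2j11 (0.20 ± 0.054, peak at 9.27 h) were fitted with peaks at nearly the same hour, and Cyp2j9 (0.26 ± 0.078, peak at 19.4 h) with a peak far from both (limma adjusted p = 0.00209, 0.0203 and 0.0485). Gstp2, Sult1b1, Gstm5, Gsta4 and Gstm2 passed with amplitudes of 0.86, 0.15, 0.10, 0.07 and 0.06. Gstp2 had only 1 to 38 units in the libraries. The call of Cyp2j5 held in 3 of 4 fits without a replicate number, and those of Gstm5 and Gsta4 in 1 of 4. The calls of Cyp2j11, Cyp2j9, Gstp2 and Sult1b1 held in 0 of 4. Without CT32 the amplitude of Cyp2j11 was 0.13. With time-point means as the unit 0 members and 0 genes of the table passed in limma, though 6 had an unadjusted p under 0.05. Without a replicate number 0 to 4 members passed, without CT0 none did (19 at an unadjusted p under 0.05) and without CT48 17 did. In the authors' deposited table, 25 of the 55 members had a combined q under 0.05, beside 45.8% of the rows with a mean of 10 or more. Cyp2j9 had a q of 1.24e-05 and a phase of 19.4 h in the authors' deposited table, and Gstm5 a q of 3.1e-06 and a phase of 6.42 h there. Cyp2j11 and Gstm2 had a q of 0.0112 and 0.0181. The q of Cyp2j5 (0.0517, with a period of 20.5 h), Gstp2 (0.208), Gsta4 (0.203) and Sult1b1 (0.363) was not under 0.05.

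Genes around these enzymes were taken by list. Of 15 regulators, 4 rose in CT0 to CT24 and 10 rose in CT28 to CT48, and none fell. Over all genes 12.9% rose and 10% fell in the first part, and 28.7% and 30.7% in the second, and the counts of every list below stand beside these shares. Maf (1.03 ± 0.115), Ppara (0.99 ± 0.192) and Mafk (0.95 ± 0.130) rose most in the later part (limma adjusted p = 2.4e-08, 6.69e-05 and 4.44e-07). Without CT28 and CT32, 2 regulators rose, Maf among them. Nfe2l2 passed in neither trend (0.04 and 0.05, adjusted p = 0.35 and 0.617). Of 13 NFE2L2 target genes, 3 rose and 1 fell in the first part and 9 rose and 1 fell in the second.

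Hmox1, the inducible heme oxygenase, moved most in that list. It had 1259, 975, 1059 and 1081 at CT28, 791, 856, 494 and 775 at CT32, 3219, 3702, 3995 and 4127 at CT36 and 4194, 6577, 5929 and 4514 at CT48. Like Gsta1, its 8 libraries of CT28 and CT32 lay below all later ones. The slopes of Hmox1 were -0.73 ± 0.181 and 3.74 ± 0.540 (limma adjusted p = 0.00443 and 3.77e-06). Nqo1, a quinone reductase, and Gclc, which makes the first step of glutathione synthesis, rose in the later part, with slopes of 1.14 ± 0.156 and 1.12 ± 0.210. Without CT28 and CT32, 1 gene of the list rose (Gsr, glutathione reductase) and none fell.

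Supply and export genes that passed in the first part rose. Of 11 genes of cofactor supply 6 rose, led by Papss2, which makes the sulfate donor PAPS (0.42 ± 0.061, limma adjusted p = 7.7e-06), and of 8 efflux transporters 6 rose, led by Abcb1a (0.51 ± 0.109, limma adjusted p = 0.000792). In CT28 to CT48, 6 cofactor genes rose and 2 fell (Slc35b2 and Ggt1), and 6 efflux transporters rose. Of 5 electron donors of P450, Por and Fdx1 rose in the first part, and 2 rose and 2 fell in the second. Among 19 other oxidising and hydrolysing enzymes, 9 rose and 1 fell in the first part, led by Ces1f (1.06 ± 0.174), and 8 rose and 3 fell in the second, led by Fmo2 (1.38 ± 0.275). Of 12 other conjugating enzymes, 6 rose in the first part, and 3 rose and 2 fell in the second. Of the 5 AHR targets tested, which include Cyp1a1 and Cyp1b1, 2 fell in the first part, and 2 rose and 1 fell in the second. Without CT28 and CT32, the later counts were at most 1 in each direction in each of these 6 lists.

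Markers of cell types moved in the same libraries. Of 12 proximal tubule markers 11 rose in CT0 to CT24, and their summed level was 104274 to 119876 at CT0 and 150487 to 167230 at CT24. In the later part 3 rose and 1 fell. Sums were 104838 to 131134 at CT28, 132581 to 163639 at CT32 and 134276 to 162829 at CT36. At CT40 the sum was 103150 to 138689, with a median of 115209 beside 118861.5 at CT28. It was 116203 to 147447 at CT44 and 130610 to 162221 at CT48. In these whole-kidney samples more cells of a type and more RNA per cell cannot be told apart, and the part of the markers in the members' changes was not tested. In CT0 to CT24, 5 of 5 markers of the loop and distal tubule, 4 of 5 of the collecting duct, 3 of 5 of podocytes, 3 of 4 of macrophages and 2 of 5 of endothelium rose, and 3 of 5 of nephron progenitors and 2 of 5 of stroma fell. In CT28 to CT48 the rises and falls were 2 and 2, 3 and 2, 3 and 1, 4 and 0, 4 and 0, 0 and 3, and 2 and 1 in the same order. Of 4 erythroid markers 1 rose and then 1 fell. Of 3 intestinal ones Vil1 and Cdhr2 rose in the first part and Cdhr2 in the second, with means of 2371 and 1763. Lgals4, with a mean of 36.1, passed in neither trend, and Fabp2 and Cdx2 of that list had no values.

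The liver also makes most of these enzymes, so its markers were read too. Of 10 liver markers, 2 rose in CT0 to CT24 (Ttr and Serpina6) and 4 in CT28 to CT48, and none fell. Their sum was 14005 to 15942 at CT0 and 20523 to 23206 at CT24. In the later part it was 12555 to 15594 at CT28, 13782 to 18741 at CT32 and 18736 to 21624 at CT36. It was 16235 to 23657 at CT40, 15475 to 20783 at CT44 and 19601 to 25513 at CT48. Serpina6, Afp and Ttr made up most of that sum, with means of 8066, 7265 and 2099 over all libraries, beside 211 for Alb. At CT36 against CT32, 4 of the 10 rose and 2 fell, Alb by -2.33 and Apoh by -2.16 (limma adjusted p = 0.0454 and 0.0411). Alb, the defining one, was 16 to 1224 over the libraries and passed in neither trend, and Apoh was at 0 in 3 libraries. The adrenal list rose for 0 and then 2 of 4 tested genes, with a sum of 156 to 698, the highest in 1 library of CT28, and Cyp11b1 and Cyp21a1 were at 0 in 27 and 26 libraries. Their part in the members' changes was not tested.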

How the data were processed

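Fetal kidney RNA was extracted from tissue kept in RNAlater, poly-A selected and sequenced with a TruSeq kit on HiSeq instruments, per the labels' protocols. The submitters' processing notes name the genome build mm10, the aligner STAR 2.5.2b, the counter featureCounts 1.5.0-p3 and bcl2fastq. No source used here states the annotation, strand setting or normalisation. The deposited gene table is headed as counts, but its values are a normalised score rounded to whole numbers, so no count test or counting interval was used. A further deposited table holds p-values and q-values with period and phase from the authors' rhythm tests.

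Values were taken as log2(value + 1), genes with a mean of 10 or more over all libraries were kept, and limma 3.58.1 in R 4.3.3 was fitted with an intensity trend and robust variances, with Benjamini-Hochberg adjustment over all 14426 genes and a threshold of 0.05. Trends and the contrasts of 2 time points were fitted within a part; the slope difference used all 51 libraries with weights of 1.8 and 0.517 per library of the earlier and the later part. A fold change on this scale understates the change of low genes. Named in each family and comparison are up to 3 members with the largest rise and 3 with the largest fall past the threshold, plus the member with the highest level per kb, and in the other lists the 4 with the largest change past it; other members named were chosen after their values were seen, and 1 gene of those lists is not reported here. Members and lists were chosen with earlier results of these data known. Exon lengths and gene coordinates come from GENCODE M21 on GRCm38 (mm10). Figures used matplotlib 3.10.9. The scripts were tested on simulated data. Alternatives were another pseudocount, no filter, quantile scaling, a replicate block, time-point means, a fit on all libraries, and leaving out replicates, libraries or time points.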

Additional observations from a re-analysis of the deposited data

Results flagged for a closer look

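Within groups of 4 libraries, 1 library stood far from the other 3 in 4 of 72 groups looked at (members named in a contrast, at its time points); chance gives about 1 such case in 20 groups. Cyp2e1 had 748 in 1 library of CT24, with the others at 653 to 655. Gsta1 had 66 in 1 library of CT0, with the others at 89 to 92. Gstt1 had 266 in 1 library of CT36, with the others at 404 to 431. Sult1a1 had 967 in 1 library of CT36, with the others at 364 to 391.

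The slopes of 20 members, up to 3 in each family and direction, were unequal between the 2 parts by limma's interaction test over 51 libraries. Values are the slope in CT28 to CT48 minus that in CT0 to CT24, in log2 per 24 h. Among P450 genes the difference was 1.29 for Cyp2j9, 1.28 for Cyp1b1 and 0.96 for Cyp2d22, and it was -4.63 for Cyp1a1, -1.32 for Cyp2j11 and -1.06 for Cyp2r1. Among glutathione transferases it was 3.21 for Gsta1, 0.71 for Gstt2 and 0.59 for Gstm1, and it was -1.50 for Gsto2, -0.93 for Gstk1, -0.84 for Gstt1, -0.43 for Mgst3 and -0.38 for Mgst1. Sult1a1 had 1.30 and Sult1d1 0.70. Among the glucuronosyltransferases, Ugt1a6a had 1.18, Ugt1a1 1.15, Ugt1a7c 0.86 and Ugt2b37 -1.57.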

How the results depend on the processing

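Over 11 counts of members under all alternatives, 180 values stayed within 1.5 times the reported count and 38 did not. With time-point means as the unit, 6 members rose and 0 fell in CT0 to CT24 (4 fell at an unadjusted p under 0.05), 9 members fell in CT28 to CT48 and 0 members had a 24 h rhythm. In a fit on all 51 libraries, 7 members rose and 0 fell in CT0 to CT24 (1 at an unadjusted p under 0.05), and 10 rose and 1 fell at CT24 against CT0. Without CT28 and CT32, 0 members rose and 1 fell in CT28 to CT48, and 0 had a more positive and 1 a more negative slope. Fewer samples enter that fit. Without 1 replicate number, members that rose and fell numbered 8 to 11 and 1 to 4 in CT0 to CT24, 17 to 19 and 13 to 15 in CT28 to CT48, 11 to 18 and 2 to 4 at CT24 against CT0, and 7 to 16 and 9 to 11 at CT36 against CT32. More positive slopes numbered 10 to 14, more negative ones 12 to 13, and rhythmic members 0 to 4. Without 1 time point, members that rose and fell numbered 6 to 16 and 1 to 4 in CT0 to CT24 and 14 to 20 and 11 to 17 in CT28 to CT48. More positive slopes then numbered 9 to 15, more negative ones 11 to 17, and rhythmic members 0 to 17. Without 1 library, 15 to 18 members rose and 2 to 4 fell at CT24 against CT0, and 11 to 15 and 8 to 12 at CT36 against CT32.

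For members named by the rule in each comparison, 1649 values kept their direction and side of the threshold. Another 274 no longer passed and 5 reversed, the latter all without CT28 and CT32. The reversed ones were the trend of CT28 to CT48 for Cyp2r1 (0.0673) and Ugt2b5 (0.0279) and the slope difference for Cyp2r1 (0.283), Sult1d1 (-0.0281) and Ugt2b37 (0.0981). In that trend, called members beyond the named ones also changed sign, namely Ugt1a9 (-0.114), Ugt2b34 (0.0732) and Gstm6 (0.162). The cause was not tested. Of 16 counts over the other lists, which were read without CT28 and CT32 after the data were seen, 14 moved by over 1.5 times. With the replicate block, 4 members fell at CT24 against CT0, and the other counts stayed within 1.5 times. Equal replicate numbers were not taken to pair the libraries, since 56 of 138 pairs and not all had correlated deviations above 0.1. The median was 0.0546 for equal and -0.0199 for other numbers, and 21 of 51 libraries were nearest to one of their own number. Replicate 2 has library number 11 at CT0 but 24 at CT12 and 26 at CT20. A check by replicate number therefore cannot decide whether libraries were paired. Depth is unknown, so precision rests on the number of libraries.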
